A study of Homo sapiens with 2 samples.

Results

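HAT1, its histone-binding partners RBBP4 and RBBP7, and 7 other lysine acetyltransferases (KAT2A, KAT2B, KAT5, KAT6A, KAT7, EP300 and CREBBP) were followed in RNA-sequencing data. The data came from human cells labelled as the ovarian carcinoma line OVCAR-3. These 10 genes were chosen by symbol from 28038 listed genes, and HAT1 was chosen because its values in these same 2 libraries were already known to differ, so its difference is a description and not a test. All 10 passed a minimum of 50 counts over both libraries, as did 14157 genes in all. The 2 groups were 1 culture labelled OVCAR-3 with the genotype control, which carried an empty viral vector, and 1 OVCAR-3 culture overexpressing IGF2BP3. IGF2BP3 binds messenger RNA and is one of the readers of m6A, a methyl mark on adenosines. The labels do not say which promoter drove IGF2BP3 or whether either culture was 1 clone.

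Lysine acetyltransferases transfer the acetyl group of acetyl-CoA to lysine side chains of histones and other proteins. HAT1 is the cytoplasmic and nuclear enzyme that acetylates newly made histone H4 before it is built into chromatin, and RBBP7 and its close relative RBBP4 hold the histone for it. The other enzymes act mostly on histones already in chromatin, each inside a large complex: KAT2A and KAT2B in SAGA and ATAC, KAT5 in the TIP60 complex, KAT6A and KAT7 with BRPF or JADE scaffold proteins, and EP300 and CREBBP as coactivators of many transcription factors.

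Listed counts summed to 43190215 for the control culture and 48017861 for the overexpressing one, and pairs of values below give the control library first. With 1 library per group there was no replicate error and no p-value was computed, and every ratio below compares these 2 libraries only. Its 95% interval is an exact (Clopper-Pearson) interval that covers counting error alone. CPM is a gene's count scaled to library size by the TMM method. IGF2BP3 itself stood at 67.9 and 133 CPM, a ratio of 1.96 (1.88 to 2.05). The label was not borne out by most of its markers: 7 of 9 listed epithelial markers and 3 of 3 listed serous carcinoma markers were below 5 CPM in both libraries. Not listed at all were 1 of 10 epithelial, 4 of 7 serous carcinoma and 3 of 8 leukocyte and endothelial markers chosen. EPCAM stood at 1.32 and 1.17 CPM and PAX8 at 0.646 and 0.669 CPM, while KRT18 stood at 103 and 102 CPM and VIM, a mesenchymal filament gene, at 2175 and 2149 CPM. Of the 5 mesenchymal markers 2 were also below 5 CPM in both libraries, TWIST1 at 1.04 and 0.648 CPM and FN1 at 3.02 and 2.36 CPM. All 5 listed leukocyte and endothelial markers were below 5 CPM in both libraries.

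The promoters of HAT1 and of its partners are shown because these 3 genes code for an enzyme and the proteins that hold its substrate, while only HAT1 differed by a large factor between the libraries. Each sequence is the 250 bases before the transcription start, from RefSeq on GRCh38.p14, printed 5′ to 3′ on the strand of the gene. Capitals mark CCAAT, the box bound by the factor NF-Y, which here reads ATTGG because it lies on the other strand.
HAT1, chr2:171922211-171922460, plus strand: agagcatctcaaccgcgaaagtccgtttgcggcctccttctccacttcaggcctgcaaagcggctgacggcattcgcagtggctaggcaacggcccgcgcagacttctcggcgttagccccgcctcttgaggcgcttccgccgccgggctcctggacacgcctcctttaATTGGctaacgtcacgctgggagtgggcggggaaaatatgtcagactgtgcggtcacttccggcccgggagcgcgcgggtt
RBBP4, chr1:32650958-32651207, plus strand: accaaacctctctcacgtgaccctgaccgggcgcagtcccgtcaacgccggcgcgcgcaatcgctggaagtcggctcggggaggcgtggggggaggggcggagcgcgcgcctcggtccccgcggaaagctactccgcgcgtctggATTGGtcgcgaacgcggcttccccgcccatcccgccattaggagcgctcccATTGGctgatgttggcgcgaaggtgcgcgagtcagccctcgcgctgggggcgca
RBBP7, chrX:16870363-16870612, minus strand: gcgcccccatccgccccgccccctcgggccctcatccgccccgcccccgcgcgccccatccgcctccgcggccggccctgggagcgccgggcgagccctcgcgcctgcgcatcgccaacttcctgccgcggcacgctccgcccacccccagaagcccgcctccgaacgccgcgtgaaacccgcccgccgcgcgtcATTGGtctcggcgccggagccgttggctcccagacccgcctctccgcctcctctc
The match begins 81 bases before the start in HAT1, 105 and 54 bases before it in RBBP4 and 55 bases before it in RBBP7. RBBP4 and RBBP7 had 2 RefSeq windows each, and the one nearest the GENCODE 29 start is shown. Their other windows held 1 match each. In GENCODE 29 the RBBP4 gene begins at 32651142, so the nearer RBBP4 match lies inside that annotated gene. RefSeq promoters were matched for 9 of the 10 genes, KAT6A being the other one. No CCAAT or ATTGG was found in these windows of KAT2A, KAT2B, KAT5, KAT7, EP300 or CREBBP. CCAAT on either strand was present in 32.0% of all 35116 promoter windows of this length, and the motif was chosen after these promoters had been seen. The HAT1 window held 27 CpG dinucleotides and was 64.0% G or C, against medians of 11 and 58.0% over all windows. This was not particular to HAT1. The windows of RBBP4, RBBP7, EP300, KAT2B and CREBBP held more CpG, from 31 to 40, and those of KAT5, KAT7 and KAT2A fewer, from 11 to 19. TATAAA was found on neither strand in any of the 9 genes and in 10.7% of all windows.

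HAT1 (ENSG00000128708; GRCh38 chromosome 2, 171922448 to 171983682, plus strand) had 23 counts in the control library against 2082 with IGF2BP3 overexpression. This was 0.531 CPM against 43.5 CPM, a ratio of 81.9 (54.5 to 130). Low counts were even more often than odd, in 64.1% and 63.3% of genes with 1 to 20 counts. Intervals were therefore also computed from counts divided by 2, in case each read pair had been counted as 2, which was not tested. For HAT1 the halved counts gave 46.2 to 162. The control count was above the floor of 3 counts. The authors' deposited table gives HAT1 a log2 fold change of 6.34.

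On the scale of log2(CPM plus 1) the difference of HAT1 was 4.86, the highest (rank 1) among the 14157 measured genes. Of these genes, 0.106% differed at least 8-fold in either direction on that scale, and 0.0494% were at least 8-fold higher with overexpression. HAT1 was chosen for this difference, so its rank is no independent evidence. The plot of all measured genes shows it far above the diagonal, on which the other 9 members lie. Rank 1 depends on the 1 CPM added: by plain ratio BOLA2B, with 7 and 864 counts, stood above HAT1 at 112 (54.0 to 279).

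**Figure D1:**
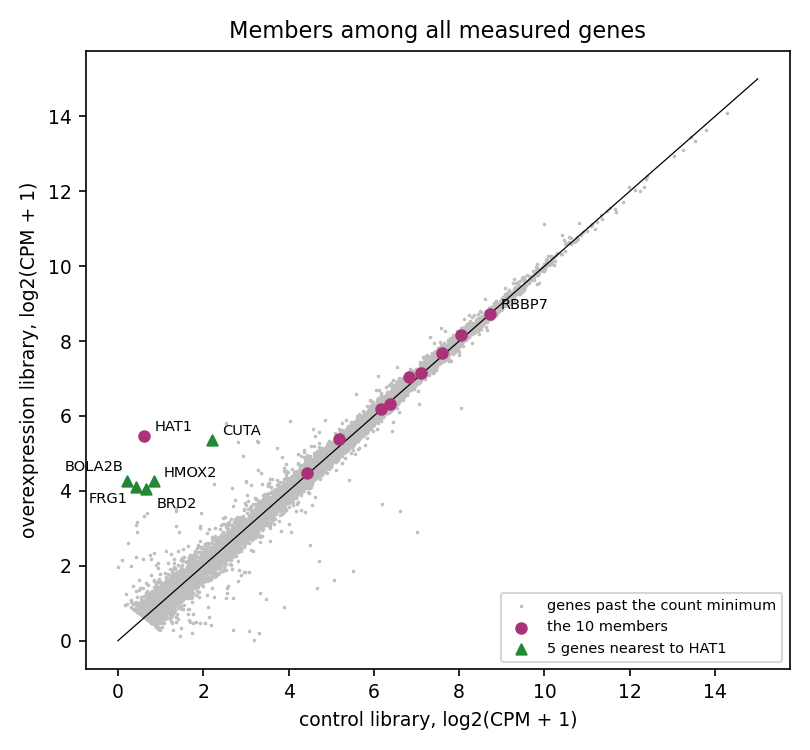
Level of each of 14157 genes in the control library (x axis) and the overexpression library (y axis), both as log2(CPM + 1), with the 10 members as purple circles, the 5 genes nearest to HAT1 as green triangles and the line of equality in black. HAT1 sits 4.86 above the line, whereas the other members lie between -0.08 and 0.20 from it.

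The pattern of HAT1 was compared with all measured genes by the distance between their pairs of log2(CPM plus 1) values, over 2 libraries. The nearest was HMOX2, a heme oxygenase, at a distance of 1.24, with 34 and 869 counts. BOLA2B followed at 1.29 with 7 and 864 counts, FRG1 at 1.37 with 15 and 782 counts, the acetyl-lysine reader BRD2 at 1.42 with 25 and 746 counts, and CUTA at 1.58 with 155 and 1933 counts. None reached the HAT1 level in the overexpression library, where they ranged from 15.6 CPM for BRD2 to 40.4 CPM for CUTA. Below 1 CPM in the control library and at 10 CPM or more in the overexpression library were 5 genes, HAT1 among them, and 1 gene showed the opposite pattern, SLC25A24 with 602 and 41 counts.

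Some genes that every cell uses were also listed at low values, which limits what a low count in this table shows. RPS2, a ribosomal protein gene, stood at 1.20 and 1.86 CPM, RPS9 at 1.48 and 1.02 CPM, and ALDOA, a glycolytic enzyme, at 3.48 and 2.09 CPM. In the same libraries GAPDH stood at 2836 and 2820 CPM. These genes were named after their values were seen. RPL7A, another ribosomal protein gene, had 16 and 307 counts. How reads were assigned to HAT1 and to these genes was not tested.

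The HAT1 principal transcript in GENCODE 29 is 1626 bases long with 11 exons and a coding sequence of 1257 bases. The gene length behind the authors' FPKM value was 6794 bases. No 31-base word of the HAT1 principal transcript occurred in a transcript of any other annotated gene, on the same strand. Sequence outside the principal transcripts was not compared. RBBP7, KAT2B and KAT5 also shared no such word, whereas RBBP4 shared 6.53% of its words with the pseudogene RBBP4P1. That pseudogene had 452 and 540 counts, so part of the RBBP4 value is uncertain. KAT2A shared 12.2% of its words with AC099811.2, which is not among the listed genes, so part of the KAT2A value is uncertain as well. KAT7 shared words with 3285 other genes, at most 4.50% of its words with any of them, RBBP4 with 2001 and EP300 with 361. KAT6A shared words with 155 other genes and CREBBP with 10, at most 0.469% and 0.0464% of their words.

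GGAC, the core motif in which m6A is often placed and which IGF2BP proteins are reported to favour, was counted in each coding sequence on the transcript strand. HAT1 had 0 in its coding sequence and 0 in the whole principal transcript. That transcript is 1626 bases long, while the authors' length for HAT1 was 6794 bases, and sequence outside it was not searched. Among 11595 measured genes with a principal transcript, 2.66% had no GGAC in the coding sequence and 0.405% had none in the whole transcript. These shares are over sequences of all lengths and were not matched to the length of HAT1. RBBP4 had 4 and RBBP7 had 6 in coding sequences of 1275 bases each, and the counts for the other members ran from 6 in KAT2B to 35 in CREBBP. Per 1 kb of coding sequence the other 9 members ranged from 2.40 in KAT2B to 6.72 in KAT5, beside a median of 4.62 over all measured genes. The letters alone do not show where m6A lay or what IGF2BP3 bound.

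Counts at the position of HAT1 came from 2 listed genes. SLC25A12, which codes for a mitochondrial aspartate and glutamate carrier, overlaps HAT1 on the other strand and had 71 and 89 counts. It stood at 1.64 and 1.86 CPM, a ratio of 1.13. Both genes together had 94 and 2171 counts, a ratio of 20.9 (17.0 to 26). The strand setting of the counting is not given in the sources used here, so reads from the overlapping parts of both genes cannot be told apart.

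None of the 7 measured genes that overlap or flank HAT1 differed 1.5-fold, and their log2 ratios ran from -0.37 to 0.41. DLX2, a homeobox gene 116 kb away, had 604 and 504 counts and the lowest log2 ratio, and PDK1, a kinase that restrains pyruvate dehydrogenase, had 1017 and 1506 counts and the highest. These log2 ratios are of CPM plus 1. DYNC1I2, a dynein subunit gene 174 kb away, had 40 and 30 counts and thus was low in both libraries, with a plain ratio of 0.679 (0.408 to 1.12). CYBRD1 stood at 69.5 and 66.8 CPM, RPS15P4 at 7.99 and 7.79 CPM and ITGA6 at 86.7 and 101 CPM. None of these neighbours differed by a factor near that of HAT1. Around the other 9 members 0 of 58 flanking or overlapping genes differed 1.5-fold after 1 CPM was added, beside 1.66% of all measured genes. By plain ratio C17orf113, beside KAT2A, with 16 and 38 counts, stood at 2.15 (1.17 to 4.13). In the other direction L3MBTL2-AS1, beside EP300, with 34 and 24 counts, stood at 0.639 (0.363 to 1.11).

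**Figure D2:**
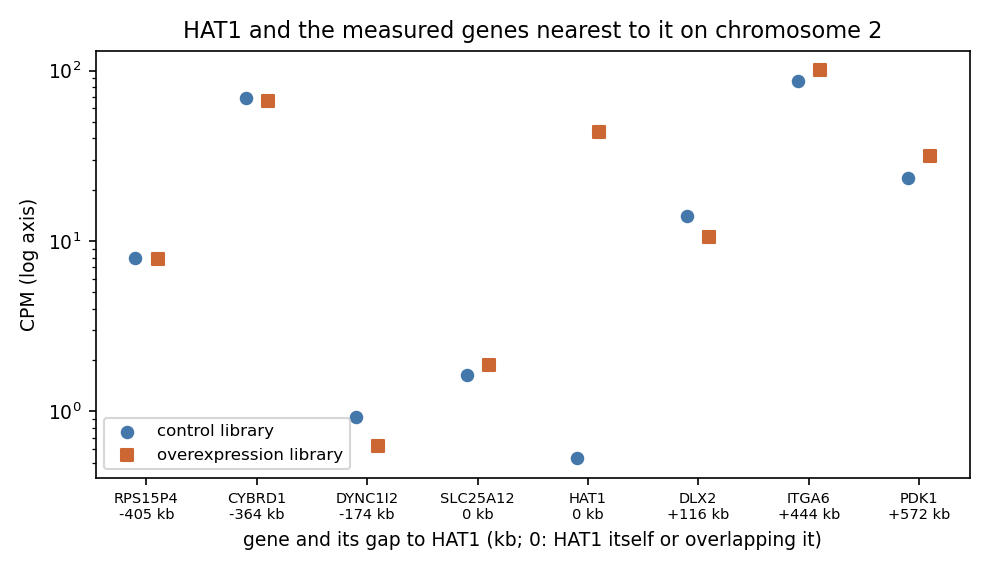
Level in CPM on a log axis of HAT1 and of the 7 measured genes that overlap it or lie nearest to it on chromosome 2, in order of position (x axis, with the gap to HAT1 in kb), for the control library (blue circles) and the overexpression library (orange squares). HAT1 goes from 0.531 to 43.5 CPM, while no neighbour differs 1.5-fold.

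The histone-binding partners of HAT1 were the most abundant members in both libraries. RBBP7 (ENSG00000102054; chromosome X, 16839283 to 16870414, minus strand) had 18190 and 20355 counts, 420 and 425 CPM. Its ratio was 1.01 (0.993 to 1.03), an interval that includes 1-fold. RBBP4 (ENSG00000162521; chromosome 1, 32651142 to 32686211, plus strand) had 11452 and 13636 counts, 264 and 285 CPM, with a ratio of 1.08 (1.05 to 1.11). RBBP7 and RBBP4 also serve other chromatin complexes, so their level is not that of the HAT1 enzyme. On the authors' FPKM scale, a level per length, HAT1 was 732-fold below RBBP7 in the control library, and 9.05-fold below it under overexpression. The first value rests on 23 HAT1 counts, and both depend on the lengths used. Per kilobase of principal transcript HAT1 stood at 0.328 and 26.7, and RBBP7 at 181 and 182.

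Among the 7 other acetyltransferases KAT6A and KAT2B had the highest ratios. KAT6A had 4885 and 6210 counts, 113 and 130 CPM, a ratio of 1.15 (1.11 to 1.19). KAT2B had 1543 and 1961 counts, 35.6 and 41.0 CPM, also a ratio of 1.15 (1.08 to 1.23). Both intervals stayed above 1-fold with halved counts, at 1.09 to 1.21 for KAT6A and 1.05 to 1.27 for KAT2B. KAT2A, which shares its place in SAGA and ATAC with KAT2B, was the only member below 1-fold with TMM scaling. It had 3583 and 3752 counts, 82.7 and 78.4 CPM. Its ratio of 0.948 (0.905 to 0.993) had an interval of 0.888 to 1.01 with halved counts.

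EP300 had 8360 and 9774 counts, 193 and 204 CPM, a ratio of 1.06 (1.03 to 1.09). Its paralog CREBBP had 5896 and 6744 counts, 136 and 141 CPM, a ratio of 1.04 (1.0 to 1.07), and its interval reached just below 1-fold. KAT5, the TIP60 enzyme, had 899 and 1019 counts, 20.7 and 21.3 CPM, with a ratio of 1.03 (0.937 to 1.12). KAT7, also called HBO1 and known for its role at replication origins, had 3086 and 3420 counts and 71.2 and 71.5 CPM. Its ratio was 1.0 (0.955 to 1.05). The authors' log2 fold change for KAT7 was -0.00461, so its sign differs between the 2 scales.

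None of the other 9 members was 1.5-fold different, where 1.66% of all measured genes were, 1.02% higher and 0.643% lower. None reached a log2 ratio of 0.32 in either direction, which 8.15% of all measured genes did. The median log2 ratio of these 9 genes was 0.05, beside 0.00423 over all measured genes. Their log2 ratios ran from -0.08 to 0.20, and with TMM scaling 8 of 9 were above 0, as were 51.1% of all measured genes. The counting interval lay above 1-fold in 4 of the 9 and below it in 1, beside 22.8% and 18.6% of all measured genes. With halved counts it was 4 and 0, beside 15.9% and 10.9%. Intervals are narrower for genes with more counts, and without replicates none of these small differences can be set against the spread between cultures.

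**Figure D3:**
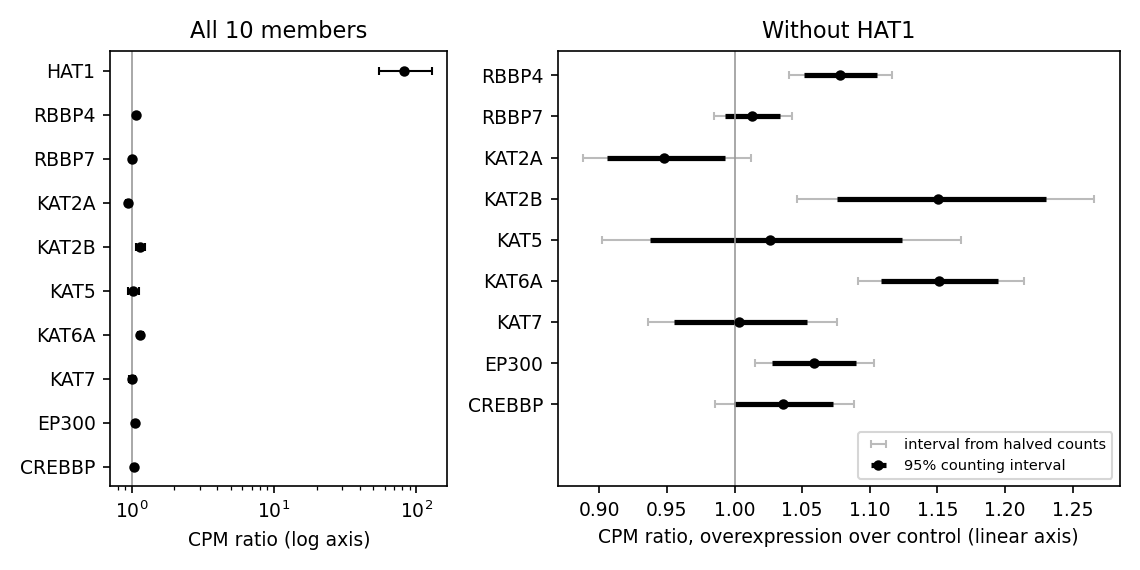
Ratio of CPM, overexpression over control, for all 10 members on a log axis (left) and for the 9 without HAT1 on a linear axis (right), with 95% counting intervals as black bars and intervals from halved counts in grey. HAT1 stands at 81.9, and the other members lie between 0.948 and 1.15.

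On the FPKM scale the 9 other members kept the same order in both libraries. RBBP7 was first at 57.4 and 57.8, followed by RBBP4 at 28 and 30.0, KAT2A at 22 and 20.7, and EP300 at 16.6 and 17.4. CREBBP came next at 8.82 and 9.07, then KAT2B at 6.86 and 7.84, KAT5 at 5.58 and 5.69, KAT6A at 4.68 and 5.36, and KAT7 at 4.31 and 4.30. HAT1, at 0.0784 (0.0497 to 0.118), was last of 10 in the control library. At 6.38 (6.11 to 6.66) it was 7th in the overexpression library, between KAT2B and KAT5.

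Neighbours in the FPKM order had separate Poisson intervals from the deposited counts in both libraries, with 1 exception. KAT5, at 5.34 to 6.05, and KAT6A, at 5.22 to 5.49, overlapped in the overexpression library. The FPKM intervals were not computed from halved counts, which would make them wider. The order also depends on the length used. The authors' lengths reached 24143 bases for KAT6A and 16574 for KAT7, whose principal transcripts are 9192 and 9644 bases long. Per kilobase of principal transcript HAT1 was still last in the control library, at 0.328, but at rank 3 under overexpression at 26.7, after RBBP7 at 182 and RBBP4 at 35.8 and before KAT2A at 25.1. This alternative was added after the data had been seen.

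**Figure D4:**
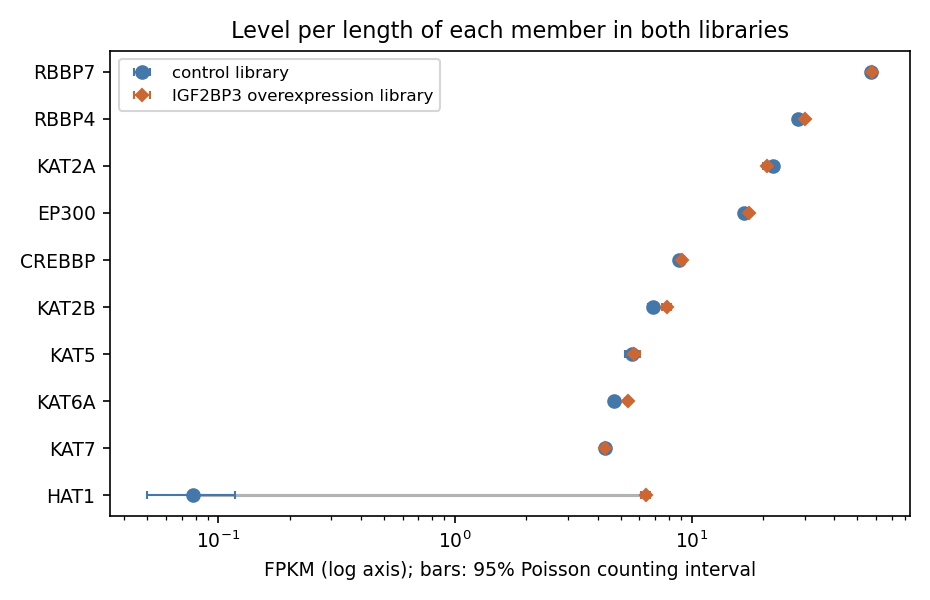
FPKM of each member on a log axis in the control library (blue circles) and the overexpression library (orange diamonds), with 95% Poisson counting intervals as bars and members in the order of the control library. HAT1 goes from 0.0784, the lowest value, to 6.38, between KAT5 at 5.69 and KAT2B at 7.84, and the other members keep their order.

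Genes that work with or against these enzymes were followed in 9 lists of 166 genes. Of these genes 162 were listed and 160 passed the count minimum, and the 4 others (KAT6B, ATAT1, ASF1B and SIRT2) are not analysed here. In all, 90 had a log2 ratio above 0 and 70 below it, with a median of 0.01, where 51.1% of all measured genes were above 0. The 1.5-fold rule is applied after adding 1 CPM to both values, so a low gene can have a plain ratio above 1.5 and not pass it. The single gene past it was BRD2, a bromodomain protein that binds acetylated histone H4. BRD2 stood at 0.577 and 15.6 CPM, a ratio of 27.0 (18.2 to 42.0). Only 25 counts lay behind its control value, and how reads were assigned to BRD2 was not tested. It was higher, as were 1.02% of all measured genes at that threshold.

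Of 15 measured further acetyltransferases 11 were above 0, as were 51.1% of all measured genes, and the median was 0.08. NCOA3, a nuclear receptor coactivator, had 3753 and 5952 counts, a ratio of 1.44 (1.38 to 1.5). NAA60, an N-terminal acetyltransferase of the Golgi, was the lowest, with 1272 and 1167 counts and a ratio of 0.831 (0.766 to 0.90). The counting interval was above 1-fold for 8 of 15 and below it for 2, with or without halved counts. Of all measured genes 22.8% lay above and 18.6% below, or 15.9% and 10.9% with halved counts.

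The chaperones that carry histones H3 and H4, the substrate path of HAT1, had a median log2 ratio of 0.00270 over 17 genes. Of these 9 were above 0 and 8 below, where 51.1% of all measured genes were above 0. ATRX, a remodeler that helps to place the variant H3.3, was furthest from 0 with 4775 and 6783 counts, a ratio of 1.29 (1.24 to 1.33). DAXX, the H3.3 chaperone, followed with 20 and 38 counts and a ratio of 1.72 (0.976 to 3.12), which includes 1-fold. With 1 CPM added 0 of the 17 were past 1.5-fold, beside 1.66% of all measured genes.

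Subunits of the complexes around the other enzymes also held no gene past 1.5-fold, where 1.66% of all measured genes were. SAGA and ATAC subunits had a median of -0.01 over 24 genes, with SGF29, which reads methylated H3, at 301 and 238 counts, a ratio of 0.716 (0.601 to 0.851), and TAF9 at 58 and 46 counts, a ratio of 0.718 (0.477 to 1.08). TIP60 subunits had a median of 0.00250 over 15 genes, with the histone reader YEATS4 at a ratio of 0.884 (0.830 to 0.942) and ING3 at 0.898 (0.808 to 0.997).

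MOZ, MORF and HBO1 subunits had a median of -0.04 over 9 genes. BRPF1, a scaffold for KAT6A, had 1808 and 1687 counts, a ratio of 0.845 (0.790 to 0.903), and ING5 had a ratio of 0.892 (0.830 to 0.960). MSL and NSL subunits, which serve KAT8, had a median of -0.02 over 9 genes, with KANSL1 at 95 and 81 counts, a ratio of 0.772 (0.567 to 1.05), and PHF20 at a ratio of 1.11 (1.05 to 1.17).

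The other complexes that contain RBBP4 or RBBP7, such as PRC2, NuRD and SIN3, had a median of -0.00620 over 30 genes. Of these 14 were above 0 and 16 below, where 51.1% of all measured genes were above 0. ARID4A, a SIN3 subunit, had a ratio of 1.21 (1.13 to 1.31) and SMARCA1, the NURF remodeler, 1.18 (1.14 to 1.22). Deacetylases, which remove acetyl groups, had a median of 0.00800 over 17 genes. HDAC9 had 346 and 555 counts, a ratio of 1.45 (1.27 to 1.67), and SIRT4, a mitochondrial sirtuin, had 64 and 115 counts, a ratio of 1.63 (1.19 to 2.24).

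Acetyl-lysine readers had the highest median of these lists, 0.13 over 24 genes, with 20 above 0 and 4 below, where 51.1% of all measured genes were above 0. Besides BRD2, SMARCA2, the ATPase of a SWI/SNF complex, had 123 and 218 counts, a ratio of 1.60 (1.28 to 2.02), and PHIP had 5105 and 7051 counts, a log2 ratio of 0.32. The counting interval was above 1-fold for 13 of 24 and below it for 2, beside 22.8% and 18.6% of all measured genes. With halved counts it was 11 and 0, beside 15.9% and 10.9%.

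**Figure D5:**
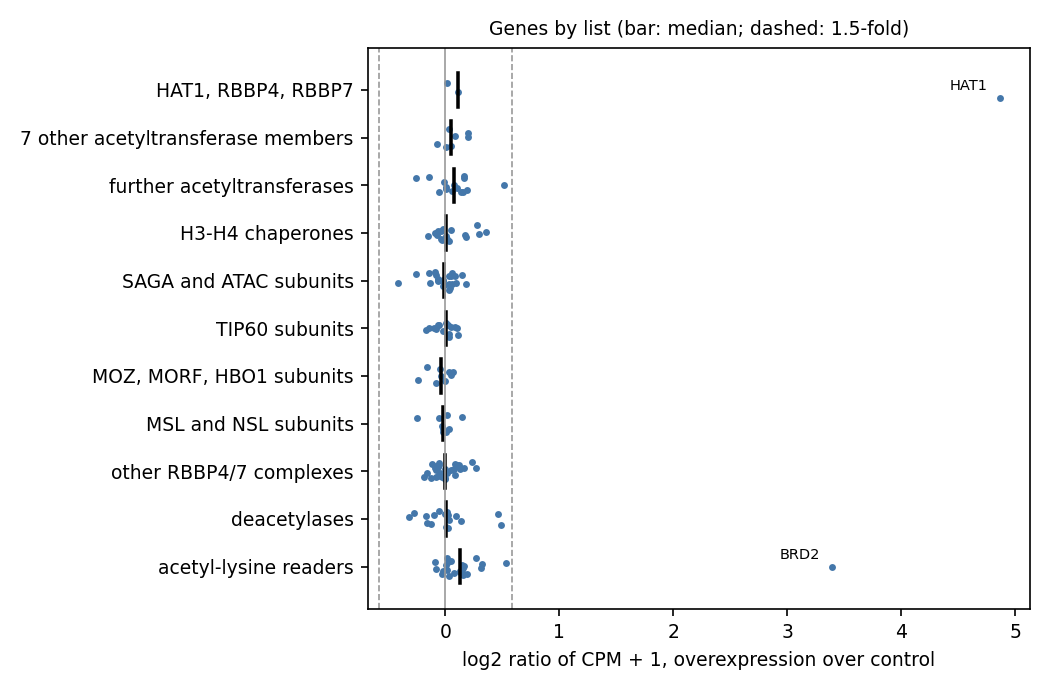
Log2 ratio of CPM + 1, overexpression over control (x axis), of each measured gene in the member groups and in the 9 related lists (rows), with the list median as a black bar and 1.5-fold as dashed lines. HAT1 at 4.86 and BRD2 at 3.39 are the 2 genes beyond the dashed lines.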

How the data were processed

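Poly(A) RNA from 1 control culture and 1 IGF2BP3-overexpressing culture was sequenced with dUTP strand marking and PCR, per the labels' protocols. The authors deposited whole-number counts, FPKM values and a log2 fold change for each gene (per the file headers). The submitters' processing notes name GRCh38. Aligner, counter, strand setting and annotation were not given in the sources used here.

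Counts were scaled by TMM (edgeR 4.0.16, R 4.3.3). Differences are log2 ratios of CPM plus 1 among the 14157 genes whose counts in both libraries summed to 50 or more; printed ratios are of CPM without a constant. Intervals are 95% Clopper-Pearson (ratios) or Poisson (FPKM) and cover counting error only; reads without molecular identifiers are not independent molecules. A count of 3 was the floor. Positions and transcripts came from GENCODE 29, which held 94.2% of the listed genes; principal transcripts are the annotated APPRIS ones.

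Members and lists were chosen with earlier results of these data known. Named by rule were all members, the 3 nearest measured genes on each side and overlapping genes, the 5 genes most like HAT1, and in each list every gene past 1.5-fold and the 2 furthest from 0 below that. Python 3.11.15, numpy 2.4.6, pandas 2.3.3, scipy 1.17.1, matplotlib 3.10.9 and DESeq2 1.42.0 (size factors only) were used; the computation was tested on simulated data. Alternatives are under the closing section.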

Additional observations from a re-analysis of the deposited data

How the results depend on the processing

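HAT1 stayed higher in the overexpression library under every alternative run, but the size of its ratio follows the constant added to low values. It was 81.4 with scaling by library totals, 82.2 with DESeq2 size factors and 69.1 with 0.1 CPM added. It was 29.1 with 1 CPM added (an alternative chosen after seeing the data), 8.77 with 5 CPM added and 6.85 on the authors' FPKM plus 1. The ratio summed over HAT1 and SLC25A12 was 20.9, and 14.6 with 1 CPM added, 7.02 with 5 CPM added and 5.71 on FPKM plus 1. Keeping only genes on the strand of HAT1 left HAT1 by itself, so that value, 81.9, is the HAT1 ratio by construction. The 9 other members stayed at 0 past the fold threshold at a log2 ratio of 0.32, at 1.5-fold, at 2-fold and under all other settings, with a median log2 ratio between 0.04 and 0.06. The related genes past 1.5-fold numbered 5 of 160 instead of 1 with 0.1 CPM added. The share of all measured genes was not computed with that constant. Past a log2 ratio of 0.32 were 7 of the 160 related genes, beside 8.15% of all measured genes. HAT1 had rank 3 instead of rank 7 in the overexpression library when principal transcript lengths replaced the authors' lengths. No paired analysis was possible because each group has 1 library, and for the same reason no library could be left out. Depth limits the HAT1 ratio through its 23 control counts.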
